A study of Mus musculus with 2 samples.

Results

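Core binding factor is a heterodimer of a DNA-binding RUNX protein and the partner protein CBFB, which does not bind DNA itself. The circRNAs described here come from 6 mouse genes of this system, Cbfb, Runx1, Runx2, Runx3, Cbfa2t2 and Cbfa2t3, and were taken as all entries whose host gene name is exactly one of these. They number 30 of 31496 circRNAs listed over both libraries, 25 of 18438 in the ISC-labelled library and 11 of 18324 in the non-ISC-labelled one. Of the 30, 28 had at least 1 read across the back-splice junction, the joint by which a circRNA is recognised, and 6 had at least 10 such reads over both libraries.

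The study profiled circRNAs in cells of the intestine of Lgr5GFP-CreERT2 mice aged 2 months, sorted by GFP under the control of Lgr5, the Wnt target gene that marks crypt base stem cells. The group labelled ISC is the Lgr5-positive fraction and the group labelled non-ISC the Lgr5-negative fraction of the same strain and age, and no treatment is named for either. Each group had 1 library, and how many animals went into it is not stated in the sources used here. No difference below has a replicate check, no p-value is given, and the intervals at 95% cover counting error only and compare these libraries, not the cell types.

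RUNX proteins bind DNA through the Runt domain, and CBFB attaches to that domain and raises its affinity for DNA. Runx1 is known for blood stem cells and lymphocyte development, Runx2 for bone formation, and Runx3 for cytotoxic T cells and sensory neurons. Cbfa2t2 and Cbfa2t3 encode corepressors of the ETO family, named after the leukaemia fusion of RUNX1 with their relative RUNX1T1. They bring histone deacetylase complexes to DNA-bound factors.

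The libraries held 156582 (ISC) and 76331 (non-ISC) junction reads, so that 3 reads, the limit set here on a count of 0 for counting error alone, are 19.2 and 39.3 per 1000000 junction reads. Markers went against the labels. Of 7 genes of a Lgr5 stem cell list with at least 10 reads, 5 were lower and 0 higher in the ISC-labelled library. Over all host genes with that many reads, 22.7% were lower and 26.7% higher. Of the 5, 3 had no reads in the ISC-labelled library and so reached 10 through the other alone. In the ISC-labelled library 18 of 20 intestinal epithelium genes were at 0, Epcam, Cdh1, Vil1 and Krt8 among them, against 5 of 20 in the other. That list's summed level was 31.9 against 5948 per 1000000. A T lineage list of 16 genes had 40611 against 1572 per 1000000 (6359 against 120 reads, of which 4292 and 3 were of Satb1), with Cd3e, Cd3d and Cd8a at 0 in both. The B lineage list had 10 against 4 reads with Ms4a1 at 0 in both, and the myeloid list 71 against 14. The stromal and endothelial list had 727 against 19, of which 649 and 12 were of Zeb1 and 67 and 7 of Pecam1. Col1a1, Col1a2, Col3a1, Pdgfrb, Acta2, Kdr, Tek and Cdh5 of that list were at 0 in both. Libraries are therefore named by their labels only. Where read numbers are given as one against another, the ISC-labelled library comes first.

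The letters at the back-splice junctions identify each circRNA, and they show where members share an exon end. Each line below gives the last 20 bases of the closing exon in lower case and the first 20 bases of the opening exon in capitals, on the gene's strand, from the GENCODE M21 transcripts (GRCm38). The set holds the leading circRNAs of each gene, at most 2, whose 40 bases are all coding.
Cbfb exons 3 to 5, longer exon 5: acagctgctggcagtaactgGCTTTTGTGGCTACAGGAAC
Cbfb exons 3 to 5, shorter exon 5: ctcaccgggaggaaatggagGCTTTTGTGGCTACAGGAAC
Runx1 exons 3 to 4: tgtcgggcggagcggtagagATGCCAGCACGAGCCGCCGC
Runx1 exons 3 to 5: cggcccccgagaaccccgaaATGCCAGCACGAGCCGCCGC
Runx2 exons 4 to 5: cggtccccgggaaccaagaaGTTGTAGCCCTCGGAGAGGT
Runx2 exons 6 to 7: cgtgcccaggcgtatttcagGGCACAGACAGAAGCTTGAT
Runx3 exons 2 to 3: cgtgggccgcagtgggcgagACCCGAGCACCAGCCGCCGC
Runx3 exons 3 to 4: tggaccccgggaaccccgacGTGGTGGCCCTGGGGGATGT
Cbfa2t2 exons 5 to 8: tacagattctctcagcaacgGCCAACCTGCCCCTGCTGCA
Cbfa2t2 exons 5 to 7: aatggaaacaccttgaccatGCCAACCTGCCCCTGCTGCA
Cbfa2t3 exons 3 to 4: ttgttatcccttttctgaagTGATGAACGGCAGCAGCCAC
Exons are numbered along the GENCODE transcript that has both ends, the first by name among basic protein-coding ones. Spliced lengths below take in all annotated exons between the ends. Junction reads do not show which inner exons a circle holds. The Cbfb pair opens with the same 20 bases and closes with different ones, and the same holds for the Runx1 and Cbfa2t2 pairs.

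Over the 6 genes, scaled to junction reads, Cbfb had a ratio between the libraries whose interval includes 1. On the other scales given below its interval excluded 1, in differing directions. All Runx1 reads but 1 were in the ISC-labelled library. Cbfb had 340 junction reads in the ISC-labelled library and 140 in the non-ISC-labelled library, which are 2171 and 1834 per 1000000 junction reads. Dividing the ISC-labelled share by the other gave a ratio of 1.18 (0.970 to 1.45). Runx1 had 118 reads against 1, or 754 against 13.1 per 1000000, a ratio of 57.5 (10.1 to 2291). Cbfa2t2 had 12 reads in each, or 76.6 against 157 per 1000000, a ratio of 0.487 (0.200 to 1.19). To be called higher or lower, a gene needed 10 or more reads in the libraries together, a change of 2-fold or more, and an interval without 1.

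By that rule Runx1 was higher, and Cbfb and Cbfa2t2 were not called. Runx1 passed the minimum through the ISC-labelled library alone. Among all 2920 host genes that reached the minimum, 26.7% were higher and 22.7% lower in the ISC-labelled library, so 1 of 3 members called is near the background. The other 3 members were below 10 reads. Runx2 had 2 reads against 1, Runx3 had 5 against 4 and Cbfa2t3 had 8 against 0. A circRNA without an entry was counted as 0, although an entry can be missing where reads exist. The Runx1 sum takes in such zeros: 91 of its 118 reads lay on 9 circRNAs with no entry in the non-ISC-labelled library. For a gene or circRNA with no reads at all in one library, no fold is given. In sorted bulk samples, fewer cells of a type and less RNA per cell cannot be told apart. Scaled to the library totals behind the deposited RPM values in place of junction reads, Cbfb reached a ratio of 3.33 (2.73 to 4.09) and was called higher. On the median ratio scale it was 1.46 (1.19 to 1.79) and not called. In the authors' count column Cbfb had 361 against 140. Scaled to that column's totals, its ratio turned to 0.770 (0.631 to 0.942), not called. The largest entry held 79.1% of the count total in the ISC-labelled library and 25.5% in the other.

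**Figure D1:**
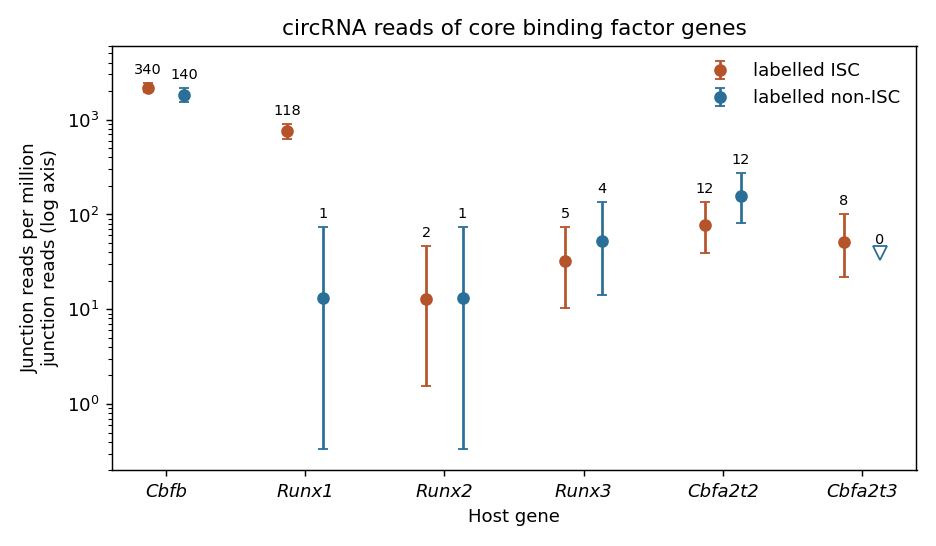
Junction reads of each host gene per 1000000 junction reads of its library, on a log axis, for the ISC- and non-ISC-labelled libraries. Bars are exact Poisson 95% intervals, numbers are the reads themselves, and the open triangle marks where 3 reads would lie, for Cbfa2t3 at 0. Cbfb lies at 2171 and 1834 with overlapping intervals, while Runx1 lies at 754 and 13.1 with intervals that do not overlap.

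Cbfb, on chromosome 8 (105170674 to 105217989, plus strand, GRCm38), gave 2 abundant circRNAs that differ by 31 nt at one end. Both open at exon 3 and close at exon 5, one at the longer and one at the shorter form of that exon. The longer (105178593 to 105202578) had 214 junction reads in the ISC-labelled library and 67 in the non-ISC-labelled library. The shorter (105178593 to 105202547) had 113 and 70. The longer thus led by 101 reads in the first library, and the shorter by 3 reads in the other.

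Per 1000000 junction reads the longer circRNA stood at 1367 against 878, a ratio of 1.56 (1.18 to 2.08), and the shorter at 722 against 917, a ratio of 0.787 (0.579 to 1.08). Neither reached the 2-fold rule, and the interval of the longer excludes 1. Among all circRNAs ranked by junction reads, the longer was at place 81 and the shorter at 171 in the ISC-labelled library, and at 133 and 121 in the other. A junction is 1 position in each circRNA, so these reads need no scaling by length.

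The balance of the pair does not depend on how the libraries are scaled. The longer held 65.4% (60.0 to 70.6) of the pair's 327 reads in the ISC-labelled library and 48.9% (40.3 to 57.6) of its 137 reads in the non-ISC-labelled library. The exact binomial intervals do not overlap. The odds of the longer over the shorter were 1.98 times as high in the ISC-labelled library (exact conditional interval 1.29 to 3.03). With every read number divided by 2, the case in which a fragment was counted through both of its ends, they were 2.02 times as high (1.09 to 3.75). This pair was singled out after its values were seen.

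**Figure D2:**
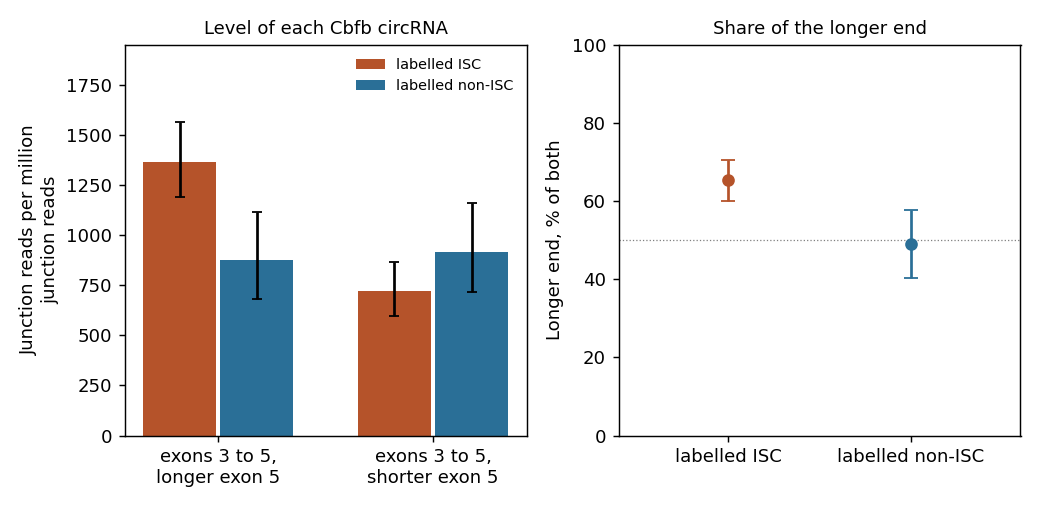
Left, junction reads per 1000000 junction reads of the Cbfb circRNAs of exons 3 to 5 with the longer and the shorter exon 5, with exact Poisson 95% intervals. Right, the longer as a percent of both, with exact binomial 95% intervals and a dotted line at 50%. The longer is at 65.4% in the ISC-labelled library and at 48.9% in the non-ISC-labelled library.

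The 31 nt between the ends, on chromosome 8 from 105202548 to 105202578, are shown because they are what separates the circRNAs.
Cbfb exon 5, bases held by the longer form only: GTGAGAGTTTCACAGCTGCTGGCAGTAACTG
The stretch opens with GT, the letters with which nearly all introns start. In the shorter form these letters are the first of the intron, and in the longer they are part of the exon. Both forms are annotated in linear transcripts. Exon 5 measures 127 nt in one and 96 nt in the other, and the coding sequences have 182 and 187 codons, since 31 is no multiple of 3 and exon 6 is read in another frame. No column of the files holds linear reads, so the use of the exon ends in mRNA was not analysed here.

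With all annotated exons between the ends taken as included, the spliced lengths were 361 nt for the longer and 330 nt for the shorter Cbfb circRNA. All these bases are coding in the linear transcript. The frames below rest on the same assumption, which junction reads do not test. Read on in the frame of the mRNA, the 330 nt circle, a multiple of 3, met no stop codon in 3 rounds, whereas the 361 nt circle met one at codon 147, in the second round. Of 19 member circRNAs made of coding exons only, 11 had a length that is a multiple of 3, and the same 11 met no stop in 3 rounds. Such a circle keeps the frame of the mRNA in each round, so at most the codon across the junction is new. The 19 include the Cbfa2t2 circRNA of exons 9 to 10, which had no junction reads. This describes the sequence, and no readout of translation was analysed here.

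The other Cbfb circRNAs were thinly read. The circRNA of exons 4 to 5 with the longer exon 5 (105194475 to 105202578, 244 nt) had 5 reads against 2, and no partner with the shorter exon 5 was listed. An entry inside the 3' UTR (105216512 to 105216785) had 6 reads in the ISC-labelled library and no entry in the other. The remaining 3 Cbfb circRNAs had 1 read each, one of exons 3 to 4 in the non-ISC-labelled library and 2 with at least one end in an intron in the ISC-labelled library. The leading pair held 96.2% and 97.9% of the gene's reads, against medians of 86.8% and 86.8% for the 2 leading circRNAs over the 199 host genes that reached 50 reads on both sides.

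Shifts of that size between leading circRNAs were common in these libraries. In 155 of those host genes both leading circRNAs had reads in both libraries, and in 56 of them (36.1%) the odds ratio had an interval excluding 1, Cbfb among them. The Cbfb shares lay 16.5 percentage points apart, against a median of 8.90, and 40 host genes were further apart. Ends as close as those of the Cbfb pair were few. Among all listed circRNAs there were 4 pairs, from Cbfb, Ezh2 and Psd3, that shared one annotated end, differed by at most 50 nt at the other and had at least 20 reads in each library. In 1 of the 4, a share of 25.0% made up by the Cbfb pair, the interval of the odds ratio excluded 1, and that pair also had the most reads, 464 in all. The bounds of 50 nt and 20 reads were set after the Cbfb pair was seen.

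**Figure D3:**
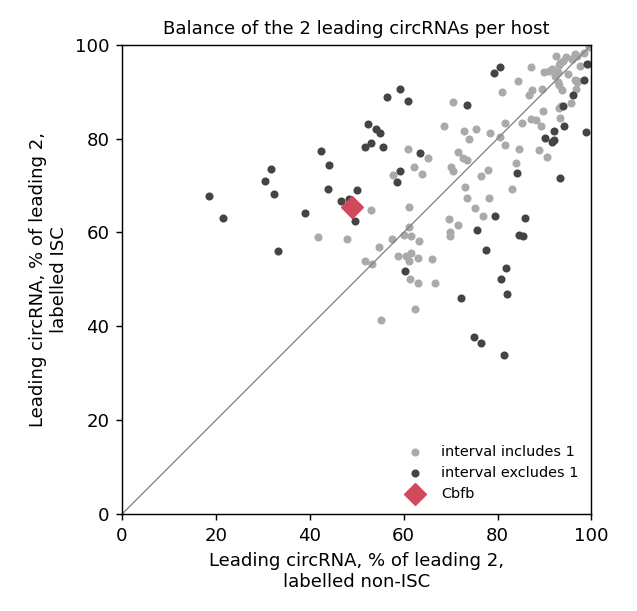
Each point is 1 of 155 host genes that reached 50 junction reads on both sides, with both leading circRNAs read in both. The axes give the share of the leading circRNA in the reads of the leading 2, in percent, in the non-ISC-labelled library (x) and labelled ISC (y). Cbfb, the diamond at 48.9% and 65.4%, lies above the line of equal shares among the 56 genes whose odds ratio interval excludes 1.

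Runx1, on chromosome 16 (92601466 to 92826149, minus strand), had 11 circRNAs listed, 10 with reads in the ISC-labelled library and 1 with a read in the non-ISC-labelled library. The leading one holds exons 3 and 4 (92688976 to 92695737, 411 nt), with 53 reads and no entry in the non-ISC-labelled library. The circRNA of exons 3 to 5 (92668708 to 92695737, 516 nt) stood at 27 reads against 1 (ratio 13.2, 2.17 to 539). The one of exons 5 to 6 (92644154 to 92668812, 297 nt) had 26 reads and no entry in the other library. No other Runx1 circRNA reached 10 reads, and each of the 3 was called higher in the ISC-labelled library, 2 of them with the missing entry taken as 0. All 3 passed the minimum through the ISC-labelled library alone.

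At an equal share of junction reads, 57.5 Runx1 reads would stand in the non-ISC-labelled library beside the 118 of the ISC-labelled one, and 1 was listed. The gene's reads were spread over several circles. The leading circRNA held 44.9% (35.7 to 54.3) of the 118 reads, the next 22.9% (15.7 to 31.5) and the third 22.0% (14.9 to 30.6). The 4 circRNAs that open at exon 3 together held 85 reads, or 72.0%. Exons 3 to 6 gave a circRNA (708 nt) that had 3 reads and that of exon 6 alone (192 nt) had 2. All 5 circles on exon ends were multiples of 3 in length. The gene's ratio of 57.5 was 31.7 without the leading circRNA, 13.2 on the circRNA read in both libraries alone and 8.61 in the count column, and it was called higher in each case.

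**Figure D4:**
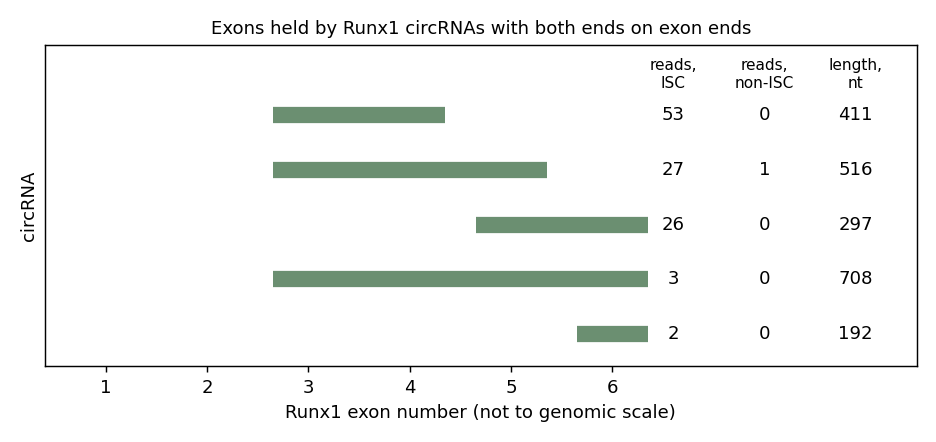
Bars span the annotated Runx1 exons between the ends of each circRNA with both ends on exon ends. Beside them stand its junction reads in the ISC- and non-ISC-labelled libraries and its spliced length with all these exons. The x axis is exon number, not distance. The circles of exons 3 to 4, 3 to 5 and 5 to 6 have 53, 27 and 26 ISC-labelled reads, against 0, 1 and 0, where 0 stands for a missing entry.

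A further Runx1 circRNA (92688999 to 92695737) opened at exon 3 and closed 23 nt inside exon 4, on no annotated exon end, with 2 reads. The other 4 with reads had at least one end in an intron and 1 or 2 reads each. Over all 6 genes, 9 circRNAs with reads lacked an annotated exon end at one or both sides. They held 16 reads in the ISC-labelled library, at most 6 on a single one, and 0 in the non-ISC-labelled library.

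Several marker lists were also higher in the ISC-labelled library. The summed ratio of the T lineage list was 25.8 (21.6 to 31.2), and 8.61 (7.15 to 10.5) without Satb1. Its 9 genes with at least 10 reads were all called higher, beside 26.7% over all host genes. However, 5 of them had no reads in the non-ISC-labelled library and so passed the minimum through the other library alone. The summed ratio was 18.7 (11.9 to 31.2) for the stromal and endothelial list and 5.43 (2.52 to 14.0) without Zeb1. In that remainder Pecam1 held 67 of 78 reads against 7 of 7. For the myeloid list the summed ratio was 2.47 (1.38 to 4.75). The 7 intestinal epithelium genes with at least 10 reads were all lower, beside 22.7% over all host genes. Of them, 6 were at 0 in the ISC-labelled library and passed the minimum through the other alone. Between the same libraries Cbfb had a ratio of 1.18, or 3.33 when scaled to library totals and 0.770 in the count column. The part of cell composition in the Runx1 and Cbfb ratios was not tested.

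Runx3, on chromosome 4 (135120652 to 135177990, plus strand), had circRNAs from exons that correspond to those of Runx1. The circRNA of exons 2 to 3 (135152788 to 135155438, 426 nt) had 4 reads against 2. It is the counterpart of the leading Runx1 circRNA: its opening 20 bases match the Runx1 exon 3 start at 16 of 20 positions, and its closing exon has the same 157 nt, identical at 78.3% of positions. The circRNA of exons 3 to 4 (135155282 to 135163335, 262 nt) had 2 reads in the non-ISC-labelled library and no entry in the other. An intronic entry (135169402 to 135169678) had 1 read, in the ISC-labelled library. At 5 and 4 reads in all, below the minimum, Runx3 had a ratio of 0.609 (0.131 to 3.07). A difference within that interval could not be told from none at this depth.

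Runx2, on chromosome 17 (44495987 to 44814797, minus strand), had 2 circRNAs. The one of exons 4 to 5 (44717192 to 44724901, 262 nt) had 2 reads in the ISC-labelled library. It is built of the same pair of exons, 157 nt and 105 nt, as the Runx3 circRNA of exons 3 to 4, with identities of 83.4% and 77.1%. The matching exons 4 and 5 of Runx1 have the same lengths, but no circRNA of those alone was listed for Runx1. The Runx2 circRNA of exons 6 to 7 (44639665 to 44658692, 336 nt) had 1 read in the non-ISC-labelled library.

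Cbfa2t2, on chromosome 2 (154436481 to 154539356, plus strand), had 5 circRNAs, all on exon ends, 4 of them read in the ISC-labelled library and 1 in both. The circRNA of exons 5 to 8 (154515817 to 154524099, 718 nt) had 4 reads in the ISC-labelled library and 12 in the non-ISC-labelled library, a ratio of 0.162 (0.0382 to 0.536), and was called lower. It held 33.3% (9.92 to 65.1) of the gene's 12 ISC-labelled reads and, of the 12 others, 100% (73.5 to 100). The circRNA of exons 5 to 7 (154515817 to 154521236, 522 nt) had 4 reads, and those of exons 2 to 4 and 8 to 10 had 2 each, all in the ISC-labelled library. The call of the first was lost with reads halved, with a minimum of 20 reads, and with scaling to library totals.

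Cbfa2t3, on chromosome 8 (122625141 to 122699109, minus strand), had circRNAs of exons 3 to 4 (122642964 to 122643533, 332 nt) and 2 to 4 (122642964 to 122650476, 479 nt), with 4 reads each in the ISC-labelled library and no entry in the other. Of the 6 member circRNAs with at least 10 reads, 3 were higher, all of Runx1, and 1 was lower, of Cbfa2t2. Each called circRNA passed the minimum through the library in which it was more abundant. Among the 3659 circRNAs of the whole table that reached this minimum, 32.4% were higher and 23.0% lower.

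Other genes of the pathway were counted by role. Of 25 corepressors and coactivators of RUNX and ETO proteins, 21 had circRNA reads and 15 at least 10, of which 2 were higher, 3 lower and 10 not called in the ISC-labelled library, beside 26.7% higher and 22.7% lower over all host genes. The median log2 ratio of the 15 was 0.27, beside 0.16 over all 2920 host genes. The acetyltransferase genes Kat6b (360 reads against 141, ratio 1.24, 1.02 to 1.52), Ep300 (152 against 101, 0.734, 0.567 to 0.953) and Crebbp (180 against 62, 1.42, 1.05 to 1.92) were not called. The methyltransferase gene Kmt2a, which the files name Mll1, tied with Crebbp in reads and was not called either (179 against 63, 1.39, 1.03 to 1.88). Neither was Ncor1, a nuclear corepressor gene bound by ETO proteins, at 137 against 112 (0.596, 0.461 to 0.772). The called genes, named after their values were seen, were Carm1 (33 against 4) and Tbl1xr1 (17 against 0), both higher, and Hipk2 (0 against 16), Yap1 (2 against 9) and Tle1 (0 against 10), all lower. Carm1, Tbl1xr1, Hipk2 and Tle1 passed the minimum through a single library alone.

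Of 18 DNA-binding partners of RUNX and ETO proteins, 12 had reads and 9 at least 10, of which 7 were higher, 0 lower and 2 not called in the ISC-labelled library, with a median log2 ratio of 2.29. Ets1 and Lef1 had no reads in the non-ISC-labelled library and passed the minimum through the other alone, and the share over all host genes was 26.7% higher. Myb, which encodes a factor of haematopoietic progenitors, stood at 105 reads against 10 (ratio 5.12, 2.68 to 11.0). The others with most reads were Bcl11b (1013 against 107), Ikzf1 (370 against 13) and Ets1 (203 against 0). Ets1 encodes a factor known to bind DNA together with RUNX1. This list shares Bcl11b and Lef1 with the T lineage list.

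Of 24 known RUNX targets, 6 had circRNA reads and 3 at least 10. The recombination gene Rag1 was higher, at 22 reads against 0, and passed the minimum through the ISC-labelled library alone. Over all host genes 26.7% were higher, so 1 of 3 is near that share. The TGF-beta receptor gene Tgfbr2, at 32 against 15 (ratio 1.04, 0.547 to 2.07), and the integrin gene Itgae, at 7 against 4, were not called. Cd4, which RUNX proteins silence in cytotoxic T cells, had 7 reads against 0, below the minimum.

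Among 84 host genes with total reads within 1.5 times of Cbfb, those closest to it in log2 ratio over the 2 libraries were Fam160b1 (396 against 163), Lrch3 (450 against 185) and Fryl (435 against 182). For Runx1, among 340, they were Slc9a9 (134 against 1), Srpk2 (92 against 1) and Ift80 (91 against 1). With 2 libraries, such likeness is a single ratio.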

How the data were processed

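Per the labels' protocols, ribosomal RNA was removed, linear RNA was digested with RNase R, and both ends of each fragment were read over 150 nt. Trimmomatic 0.36, FastQC and build mm9 stand in the submitters' processing notes, while no aligner or caller is named in the sources used here. Per the file headers, the authors deposited for each circRNA a count, its RPM and its junction reads. The deposited RPM is the count per 1000000 of a library total, 52636694 (ISC) and 72271995 (non-ISC). How the authors assigned the count is not given, and it equalled the junction count for 42.3% and 33.3% of entries, so junction reads were used.

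Starts fell on GENCODE M21 (GRCm38) exon starts for 79.4% and 81.1% of circRNAs with reads and, shifted by 1 nt, for 0.190% and 0.172%, so coordinates are given as GRCm38, counted from 1. Reads were scaled to the junction total of their library, and ratios have exact conditional (Clopper-Pearson) intervals. Log2 ratios used 0.5 added reads. The rule was tested on simulated data. Python 3.11.15, scipy 1.17.1 and pandas 2.3.3 were used. Of the 144 list genes, 2 were found under older symbols through RefSeq synonyms (GRCm38.p6) and their position. Members and lists were chosen with earlier results of these data known. The deposited tables differ in what they list, since 6122 non-ISC-labelled entries and 0 ISC-labelled entries had 0 junction reads. Named were member circRNAs with at least 10 reads (in a host with none, the 3 most abundant), the 4 list genes with most reads (ties kept) and the 3 host genes most like Cbfb and Runx1. Alternatives were the count column, other scales, read minimums, halved reads and subsets of circRNAs.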

Additional observations from a re-analysis of the deposited data

Results flagged for a closer look

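Entries with 0 junction reads but more than 3 reads in the count column stood in the non-ISC-labelled library for 2 members. The Cbfa2t2 circRNA of exons 9 to 10 (chromosome 2, 154528837 to 154531412) had a count of 8, and an intronic Runx1 entry (chromosome 16, 92759259 to 92759629) had a count of 4. Neither was listed in the ISC-labelled library. Over all members 2 of the 11 entries listed in the non-ISC-labelled library had 0 junction reads, against 33.4% of its 18324 entries over all genes, and none of the entries listed in the ISC-labelled library did.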

How the results depend on the processing

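No paired analysis was possible because each group has 1 library, and no replicate could be left out. Scaling to library totals multiplies every ratio by 2.82: Cbfb became 3.33 and was called higher, Runx2 turned to 2.75, Runx3 to 1.72 and Cbfa2t2 to 1.37, and 5 member circRNAs were higher and 0 lower. The median ratio scale moved every log2 ratio by 0.30 and turned Runx2 to 1.20. On it Cbfb stood at 1.46 (1.19 to 1.79) and was not called. In the count column Cbfb turned to 0.770 and Cbfa2t2 to 1.09, Runx3 was called lower at 0.228, 10 member circRNAs were higher and 4 lower, and the leading share of Runx1 fell to 14.1% in the ISC-labelled library. These count ratios were scaled to the column's totals, of which the largest entry held 79.1% in the ISC-labelled library and 25.5% in the other. Without its leading circRNA Cbfb turned to 0.841. Over circRNAs with reads in both libraries Cbfa2t2 was called lower at 0.162. With halved reads, and with a minimum of 20 reads, 0 member circRNAs were lower. The shares of all circRNAs called at these other settings are not given here. The member counts at these settings therefore say nothing about the members apart from the whole table. Runx1 was called higher in every alternative that gave a value, with ratios from 8.61 (count column) to 162 (library totals). With halved reads it had 56 against 0, which gives no ratio. The counts of 10 or fewer reads in Runx2, Runx3 and Cbfa2t3 limit what can be seen there.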

Other observations

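The count column and the junction reads differed most for Runx1 circRNAs off exon ends. In the ISC-labelled library these had 7 junction reads but a count of 260, of which 165 fell on 1 entry with 1 junction read (chromosome 16, 92665559 to 92689132). Runx1 circRNAs on exon ends had 111 junction reads and a count of 115. For both leading Cbfb circRNAs the columns were equal in both libraries.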
